A study of Homo sapiens with 24 samples.

Results

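The heat by radiation interaction describes whether the response of a gene to irradiation differs when the spheroids are heated first. It was read from all 24 of the 24 RNA-seq libraries of the study, chosen by the study's design and not by any measured value. For each line, the radiation effect in heated spheroids (HT_RT against HT) minus the radiation effect in unheated spheroids (RT against Control) was taken on the log2 scale, and the values of both lines were averaged. A value below 0 means that radiation raised a gene less, or lowered it more, after heat than without heat.

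FaDu and SAS are established cell lines of head and neck squamous cell carcinoma, and the FaDu cells used were a subline of the distributed line. They were grown as spheroids, which are balls of tumour cells that hold outer and inner cells in different surroundings. HT spheroids were held at 42.5 °C for 60 min, RT spheroids were irradiated with 7 Gy (FaDu) or 10 Gy (SAS), HT_RT spheroids received the heat and then, at once, the line's radiation dose, and Control spheroids were sealed and incubated alongside. RNA was taken 0.5 h after treatment, with 3 replicates from independent experiments in each of the 8 groups of line and treatment. Line and dose cannot be told apart, since each line received its own dose. Whether unirradiated spheroids were carried to the irradiator was not given in the sources used here. The libraries held 15203484 to 29452514 counts each, with a median of 18378944, and levels are given in CPM, the counts of a gene scaled to a fixed total per library with a factor for library composition. In bulk RNA of a spheroid, fewer cells of a kind and less RNA per cell cannot be told apart.

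Ionizing radiation breaks DNA and sets off kinase signalling, and among the first transcripts to rise are immediate early genes, whose mRNAs are short-lived and need no new protein synthesis. The p53 and NF-kappaB pathways follow, with targets that arrest the cell cycle or shape inflammation. Heat unfolds proteins, releases the transcription factor HSF1 to induce chaperones, and by kinase signalling also induces immediate early genes, so both stresses share part of their early transcripts.

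The labels were compared with marker genes. All 10 of 10 epithelial and squamous markers were measured above the filter, KRT5, KRT8, KRT17 and TP63 among them, and their summed level was 11832 to 16444 CPM in the FaDu libraries and 10435 to 13346 CPM in those of SAS. Of the fibroblast markers 1 of 6 passed the filter, the collagen chain COL1A1, while COL3A1 was at 0 counts in 12 libraries and DCN in 15. Of the leukocyte markers 2 of 6 passed, CD68 and CD14; PTPRC was at 0 counts in 19 libraries and CD3E in 21. Of the endothelial markers 3 of 4 passed, with a summed level of 6.11 to 23.6 CPM, and KDR was at 0 counts in 20 libraries. The heat label was visible in the share of counts on 10 chaperone genes, which was between 0.656% and 0.897% in the 12 unheated libraries and between 2.80% and 3.49% in the 12 heated ones. HSPA1A, HSPA1B and HSPA6 are among these genes, and their counts are uncertain one by one because near-identical genes share their reads.

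A pair of libraries stood apart for EGR1 and FOS, and the main results are given with and without them. EGR1, an immediate early transcription factor, read 94.7, 87.6 and 97.3 CPM in FaDu Control but 755, 195 and 229.7 CPM in FaDu RT, and replicate 1 of FaDu RT was the high one. In SAS Control it read 327, 382 and 805 CPM, and replicate 3 was the high one. FOS, its partner among the first transcripts, showed the same libraries apart: 183, 28.8 and 32.9 CPM in FaDu RT, and 11.2, 11.9 and 27.7 CPM in SAS Control. Over all genes tested, replicate 1 of FaDu stood apart in all 4 FaDu groups: the chi-square per gene between its counts and those of replicates 2 and 3 was 13.5 to 19.9, while between replicates 2 and 3 it was 3.28 to 4.76. After group means were removed, 22 of 24 libraries correlated best with libraries of their own replicate number. Of the FaDu pairs of equal number, 17 of 18 were over 0.1. The main edgeR fit has no term for that number, and counts with it as a block are given beside the results. What set these libraries apart was not tested.

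Few genes passed the test of the interaction, and most of those that edgeR called without a block were lower. Of 18188 genes tested, 5 were called by edgeR at an adjusted p under 0.05, which is 0.0275% of those tested; 4 of them were lower (0.022%) and 1 was higher (0.0055%). The genes called lower were SRSF5, PIM1, NFKBIZ and the non-coding RNA AC121338.2, and the gene called higher was ZNF555. At an unadjusted p under 0.05 there were 917 genes, and DESeq2 called 23. With the replicate number as a block edgeR called 51 genes, though whether that number marks a shared experiment is not stated. All 5 genes were among the 23 of DESeq2 and among these 51. The median standard error of the interaction was 0.16. The scale also decides: on differences of CPM in place of log2 ratios the same edgeR fit called 4 genes, SRSF5 (-120.8 ± 18.4 CPM) and ZNF555 again, with ZFAND2A (65.2 ± 10.1 CPM) and UBE2D1 (19.9 ± 3.07 CPM) as the others, both higher. The count of 5 moved with single libraries: it was 0 without FaDu RT replicate 3, SAS Control replicate 1, SAS HT_RT replicate 1 or SAS HT_RT replicate 3, 1 without FaDu Control replicate 1 or SAS HT_RT replicate 2, and 2 without FaDu Control replicate 3 or FaDu HT_RT replicate 3. It was 3 without FaDu HT_RT replicate 2, SAS Control replicate 2 or SAS HT replicate 2, 8 without SAS Control replicate 3 and 10 without FaDu RT replicate 2. With FaDu RT replicate 1 and SAS Control replicate 3 both left out, a setting chosen after the data were seen, 14 genes were called, 12 lower and 2 higher, and the 5 genes above were all among them.

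**Figure D1:**
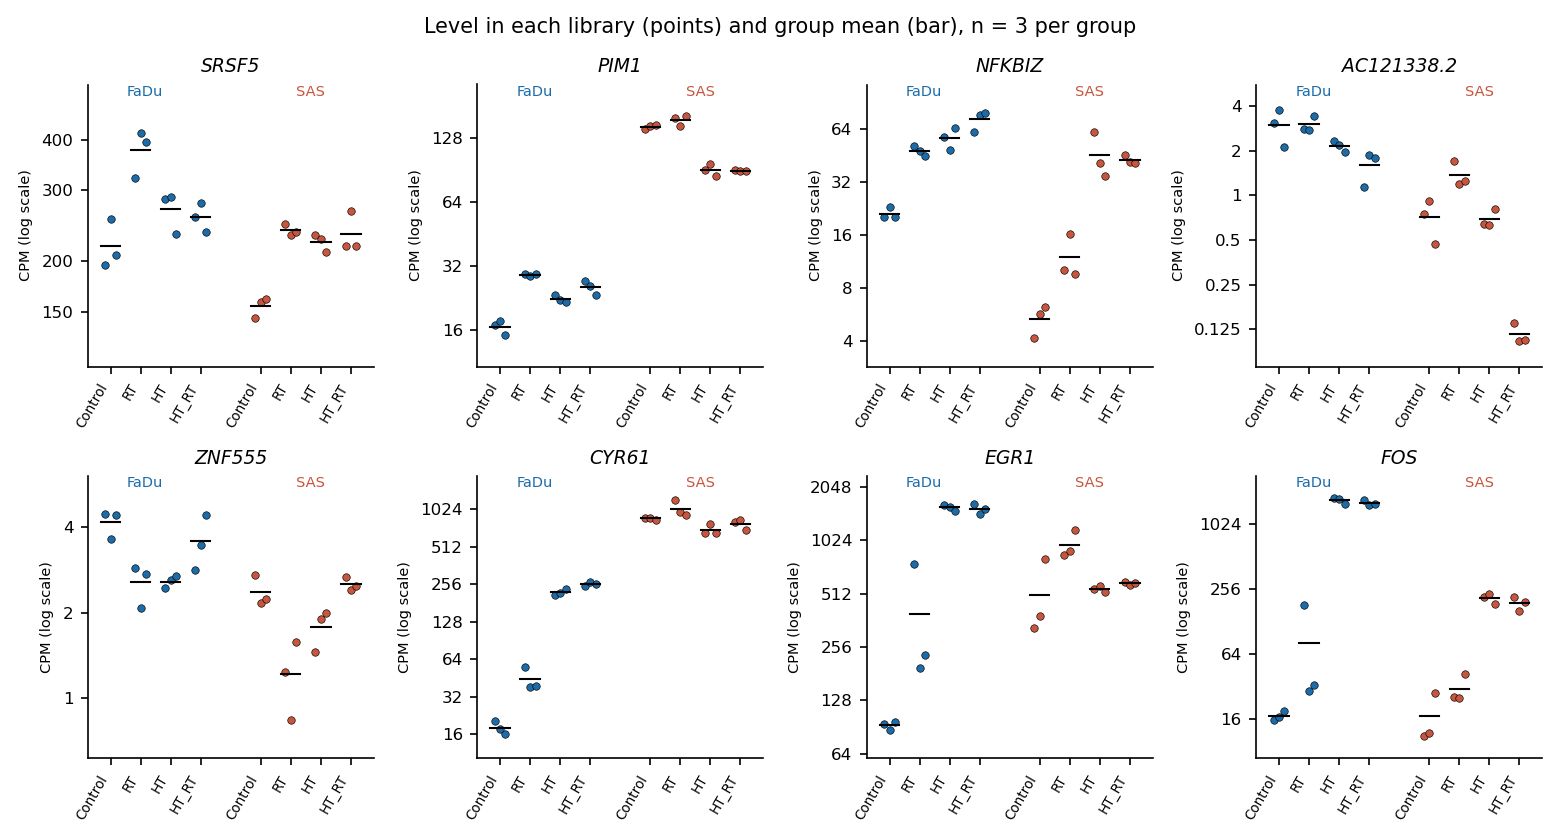
Level of 8 genes in each library in CPM on a log axis, with points for the 3 replicates and bars for group means, FaDu on the left and SAS on the right of each panel. For SRSF5 the RT points lie above the Control points in both lines while HT and HT_RT points overlap; for AC121338.2 in SAS the HT_RT points lie below all others.

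SRSF5, a serine and arginine rich protein that takes part in choosing splice sites, had the smallest p of all genes tested. In FaDu it read 196, 254 and 208 CPM in Control, 322, 415 and 394 CPM in RT, 285, 288 and 234 CPM in HT and 257, 279 and 237 CPM in HT_RT. In SAS it read 145, 159 and 162 CPM in Control, 247, 233 and 236 CPM in RT, 233, 227 and 211 CPM in HT and 218, 267 and 219 CPM in HT_RT. Thus every unheated irradiated library lay above every control of its line, and the heated groups overlapped in both lines. By edgeR the radiation effect was 0.70 ± 0.07 (SE) in unheated spheroids (adjusted p 2.45e-05, higher in 6 of 6 libraries) and 0.004 ± 0.07 in heated spheroids. The edgeR interaction was -0.70 ± 0.11 (adjusted p 0.0173, 24 libraries), with -0.85 in FaDu and -0.55 in SAS, below 0 in both lines. Heat alone raised SRSF5 by 0.41 (adjusted p 0.000153 by edgeR, 5 of 6 HT libraries above all controls of their line). The interaction of SRSF5 was called in 20 of the 24 fits that left out 1 library; it lost the call, at -0.68 without FaDu RT replicate 3 and at -0.67 without SAS Control replicate 1, SAS HT_RT replicate 1 or SAS HT_RT replicate 3.

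NFKBIZ encodes an atypical inhibitor of NF-kappaB that also helps transcribe secondary response genes. It read 20.4, 23.2 and 20.4 CPM in FaDu Control, 51.4, 48 and 45 CPM in RT, 57.8, 48.8 and 65 CPM in HT and 61.8, 77.4 and 79.5 CPM in HT_RT. The SAS libraries read 4.17, 5.76 and 6.28 CPM in Control, 10.2, 16.4 and 9.71 CPM in RT, 62.1, 41.3 and 34.7 CPM in HT and 45.6, 41.7 and 41.2 CPM in HT_RT. Radiation alone and heat alone each put every library above the controls, and HT_RT overlapped HT in both lines. The radiation effect by edgeR was 1.17 ± 0.14 in unheated spheroids (adjusted p 0.000118, 6 of 6 libraries higher) against 0.12 ± 0.12 in heated ones, and heat alone raised the transcript by 2.26. The interaction was -1.05 ± 0.19 by edgeR (adjusted p 0.0477, below 0 in both lines, 24 libraries). This call was near the threshold: 17 of the 24 fits that left out 1 library did not make it, with values between -1.08 and -0.90, and only those without FaDu RT replicate 2, FaDu HT replicate 2, SAS Control replicate 3, SAS RT replicate 1, SAS RT replicate 3, SAS HT replicate 1 or SAS HT replicate 3 did. It was also not called with 1 interaction term common to both lines (-1.02) or under a stricter filter of 10 counts or more in each library (-1.05).

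PIM1, a serine and threonine kinase that favours survival and proliferation, was called lower over both lines and in FaDu. The FaDu libraries read 16.8, 17.5 and 15.1 CPM in Control, 29.4, 28.7 and 29.2 CPM in RT, 23.4, 22.1 and 21.6 CPM in HT and 27, 25.7 and 23.3 CPM in HT_RT. In SAS the readings were 140.4, 146 and 147 CPM in Control, 158, 146 and 162 CPM in RT, 90.3, 96.3 and 84.6 CPM in HT and 90.5, 89 and 89.7 CPM in HT_RT. FaDu RT stood clear of FaDu Control, whereas the SAS RT and Control libraries overlapped, and the heated groups overlapped in both lines. The edgeR interaction was -0.38 ± 0.07 over both lines (adjusted p 0.0401, 24 libraries), with -0.65 in FaDu, where it was called on its own, and -0.12 in SAS, where it was not. Over both lines the call was kept in 7 of the 24 fits that left out 1 library, those without FaDu Control replicate 2, FaDu RT replicate 2, FaDu HT replicate 3, FaDu HT_RT replicate 1, SAS Control replicate 3, SAS RT replicate 2 or SAS HT replicate 3; the values of all 24 ran from -0.41 to -0.35. With 1 interaction term common to both lines PIM1 was not called (-0.35), and in FaDu it was not called with that line fitted alone.

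ZNF555 is a zinc finger protein of the large KRAB family. On log2 ratios it was the only gene called higher by edgeR with all libraries, the filter on low counts and no block. It read 4.47, 3.63 and 4.44 CPM in FaDu Control, 2.88, 2.08 and 2.74 CPM in RT, 2.45, 2.61 and 2.69 CPM in HT and 2.83, 3.47 and 4.43 CPM in HT_RT. The SAS libraries held 2.73, 2.17 and 2.23 CPM in Control, 1.24, 0.836 and 1.58 CPM in RT, 1.45, 1.9 and 2 CPM in HT and 2.68, 2.41 and 2.48 CPM in HT_RT. Radiation without heat left every library below the controls, and radiation after heat left every library above HT, in both lines. The radiation effect by edgeR was -0.83 ± 0.16 in unheated spheroids (adjusted p 0.0085, 6 of 6 libraries lower) and 0.49 ± 0.15 in heated ones, which was not called. The edgeR interaction was 1.32 ± 0.22 (adjusted p 0.0225, above 0 in both lines, 24 libraries). It lost the call in 8 of 24 fits, at 1.22 to 1.35, namely without FaDu Control replicate 1 or 3, FaDu RT replicate 3, FaDu HT_RT replicate 3, SAS Control replicate 1, or any replicate of SAS HT_RT.

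AC121338.2, annotated as a long intergenic non-coding RNA with no role known here, lies below the level at which genes were otherwise named and was taken up after its values were seen. In SAS it had 14, 16 and 8 counts in Control, 30, 23 and 23 in RT, 11, 12 and 15 in HT, and 2, 2 and 2 in HT_RT. In FaDu it read 3.05, 3.73 and 2.1 CPM in Control, 2.78, 2.77 and 3.44 CPM in RT, 2.33, 2.19 and 1.95 CPM in HT and 1.13, 1.86 and 1.78 CPM in HT_RT. Every HT_RT library lay below the HT libraries of its line, and in SAS every RT library lay above Control. The HT_RT level in SAS was 0.164 times that of HT, with an exact 95% interval of 0.0566 to 0.39 that covers counting error only; in FaDu the ratio was 0.751, between 0.572 and 0.985. By edgeR the interaction was -1.97 ± 0.33 (adjusted p 0.0225, below 0 in both lines, 24 libraries), with -0.46 in FaDu and -3.49 in SAS. The call was lost without FaDu Control replicate 1 (-1.98), FaDu RT replicate 3 (-1.91), SAS Control replicate 1 (-1.99) or SAS HT_RT replicate 1 (-2.03), 2 (-1.94) or 3 (-1.95), and with 1 interaction term common to both lines, where the value was -1.27.

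Line by line the interaction was called for still fewer genes, 2 in FaDu and 2 in SAS, 0.011% of those tested in each. In FaDu these were PIM1 and CYR61 (also named CCN1), a secreted matrix protein and target of YAP, both lower. In SAS UBE2D1, a ubiquitin conjugating enzyme, was higher and AC121338.2 was lower. With the replicate number as a block edgeR called 17 genes in FaDu and 17 in SAS. CYR61 read 20.3, 17.6 and 15.9 CPM in FaDu Control, 55.6, 37.9 and 38.6 CPM in RT, 211, 219 and 233 CPM in HT and 249, 267 and 258 CPM in HT_RT. For SAS the levels were 879, 876 and 846 CPM in Control, 1222, 966 and 917 CPM in RT, 666, 775 and 662 CPM in HT and 808, 840.4 and 700.3 CPM in HT_RT. Irradiated libraries were above unirradiated ones in FaDu with and without heat; after heat the step was smaller as a ratio and larger as a difference of CPM. The edgeR interaction of CYR61 was -1.07 ± 0.18 in FaDu (adjusted p 0.029, irradiated libraries above unirradiated ones in 3 of 3 RT and 3 of 3 HT_RT libraries) and -0.10 ± 0.16 in SAS. The test of the difference between the lines called 0 genes in edgeR and 0 in DESeq2, with 596 at an unadjusted p under 0.05, so for CYR61, PIM1, UBE2D1 and AC121338.2 a difference between FaDu and SAS was not shown.

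These calls within a line also rested on single libraries. The FaDu count was 0 without FaDu Control replicate 3, FaDu HT replicate 1, FaDu HT replicate 2, FaDu HT_RT replicate 2 or FaDu HT_RT replicate 3, was 1 without FaDu RT replicate 3 or FaDu HT_RT replicate 1, and was 5 without FaDu RT replicate 2 or FaDu HT replicate 3. CYR61 lost its call in 7 of 24 such fits, with the lowest size at -0.87; besides the libraries that brought the count to 0 these were FaDu Control replicate 2 and FaDu HT_RT replicate 1. The SAS count was 0 without FaDu RT replicate 2, SAS Control replicate 1 or 3, SAS RT replicate 1 or 2, SAS HT replicate 1 or SAS HT_RT replicate 2 or 3, and 1 without FaDu Control replicate 2 or SAS HT_RT replicate 1. AC121338.2 also lost its SAS call without SAS HT replicate 3. With each line fitted on its own 12 libraries none of these calls in FaDu or SAS was made, at values of -0.65 for PIM1, -1.07 for CYR61, 0.74 for UBE2D1 and -3.49 for AC121338.2. DESeq2 on all 24 libraries made each of these calls, at an adjusted p of 0.0186 or less. So did edgeR with the replicate number as a block, also at 0.0186 or less.

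Counted in genes, the radiation response of unheated spheroids was the larger one, and on the log2 scale its genes moved less after heat. Radiation without heat changed 123 genes over both lines by edgeR, 0.676% of those tested, with 75 higher (0.412%) and 48 lower (0.264%), whereas radiation after heat changed 3 genes (0.0165%), all higher. At an unadjusted p under 0.05 the counts were 1495 and 915, and DESeq2 called 199 and 25 genes. With the replicate number as a block edgeR called 416 and 71 genes. Each comparison has 12 libraries and the same median standard error of 0.11, and their estimates share no library. Heat alone changed 5687 genes (31.3%) over both lines. Line by line, of 18188 genes tested, edgeR called 6 for radiation in heated SAS and 0 in heated FaDu. Of the 6, 5 were higher and 1 was lower, with 0.000122 as the smallest adjusted p. Without heat it called 16 in SAS, 13 higher and 3 lower, and 22 in FaDu, all higher. The 123 became 81 without FaDu Control replicate 1, 72 without FaDu Control replicate 3, 77 without SAS Control replicate 3 and 74 without SAS RT replicate 2. The 3 became 1 without FaDu RT replicate 2, FaDu HT_RT replicate 2 or 3, SAS HT replicate 1, or SAS HT_RT replicate 2 or 3; it became 5 without SAS Control replicate 2 or SAS HT replicate 2, 6 without FaDu RT replicate 1 or SAS RT replicate 1, 7 without SAS Control replicate 3, SAS RT replicate 3 or SAS HT_RT replicate 1, 8 without FaDu HT replicate 3 and 14 without FaDu HT_RT replicate 1.

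The 75 genes that rose without heat had a median effect of 0.68 there and of 0.16 in heated spheroids, beside 0.001 and 0.003 over all genes tested. In heated spheroids 63 of the 75 were above 0, 27 had an unadjusted p under 0.05, all of them above 0, and edgeR called none at the adjusted threshold (DESeq2 called 25 genes in that comparison as a whole). The 48 genes that fell without heat had a median of -0.47 there and of -0.06 after heat, with 32 of 48 below 0. After heat 8 of these 48 had an unadjusted p under 0.05, 5 below 0 and 3 above. Heat alone changed 55 of the 75 genes by edgeR (31.3% of all genes), with a median of 0.40, 51 above 0 and 24 below. It changed 31 of the 48, at a median of -0.13, beside 0.02 over all genes. All these medians are log2 ratios, and steps in CPM were not compared for these sets. Genes chosen for passing a test have effects that are inflated in the libraries that chose them, and these libraries enter the interaction with the opposite sign, so the medians of the interaction, -0.42 and 0.40, lean away from 0 by the choice alone. The heated values are estimated from other libraries, the HT and HT_RT ones, though all libraries entered the shared filter, scaling and errors of the model. Leaving out any single library kept the heated median of the 75 genes between 0.12 and 0.19, with the genes called anew each time; that of the genes that fell was -0.03 without FaDu Control replicate 2 and -0.01 without SAS HT replicate 1.

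**Figure D2:**
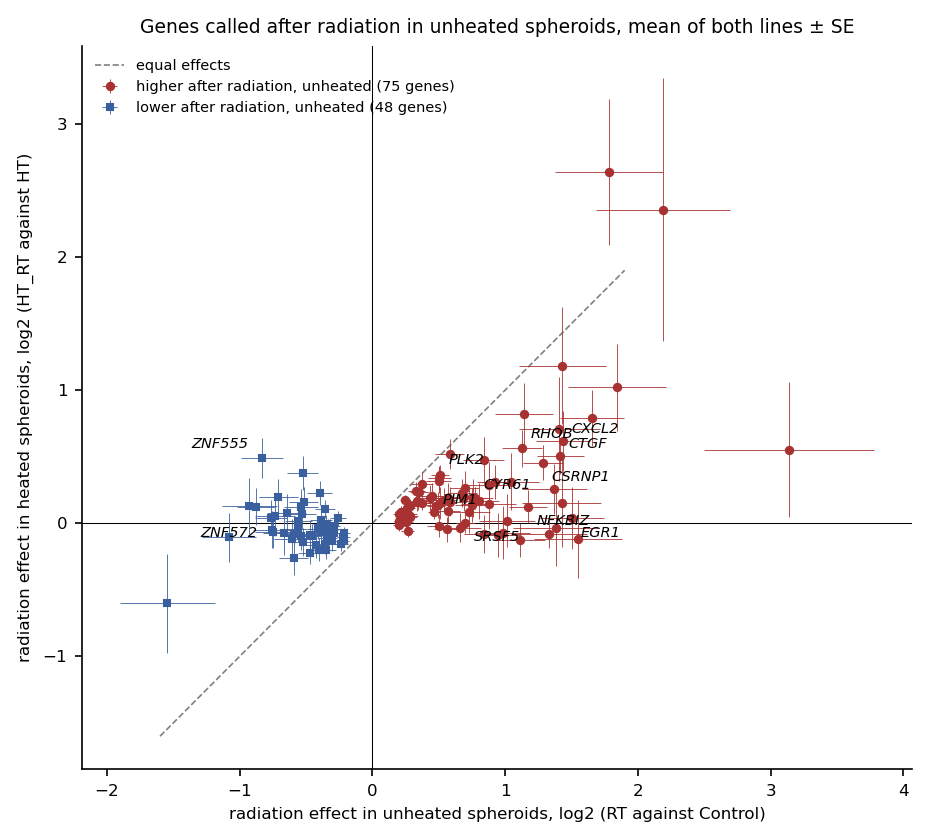
Radiation effect (log2, mean of both lines, with standard errors) in unheated spheroids on the horizontal axis and in heated spheroids on the vertical axis for the 123 genes called without heat; the dashed line marks equal effects. Most of the 75 genes that rose (circles) and the 48 that fell (squares) lie between the dashed line and 0.

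A reading across the lines avoids the shared libraries, and was chosen after the values were seen. The 22 genes that edgeR called in unheated FaDu, 0.121% of those tested and all higher, were looked up in the interaction of SAS, which uses only SAS libraries for its estimate. Their median there was -0.37, with 21 of 22 below 0, beside 0.004 over all genes. The 13 genes called higher in unheated SAS (0.0715% of those tested) had a median of -0.68 in the FaDu interaction, with 12 of 13 below 0, beside -0.006 over all genes. Genes that rose in 1 line thus mostly had negative interactions in the other line too, although edgeR called none of the 22 or 13 there. Of the 22 and of the 13, 5 each had an unadjusted p under 0.05, all below 0. Over all 18188 genes tested, 751 in the SAS and 651 in the FaDu interaction had an unadjusted p under 0.05, and 8634 and 9342 were below 0. Heat alone over both lines moved the 22 by a median of 1.63 and the 13 by 0.33, beside 0.02 over all genes. DESeq2 called 5 genes for the SAS and 4 for the FaDu interaction over the whole table. With the replicate number as a block, edgeR called 151 genes in unheated FaDu, 115 higher and 36 lower, and for the 115 the median in the SAS interaction was -0.12, with 87 of 115 below 0. The chosen genes change when a library is left out, and the medians moved with them. For SAS the median was -0.17 without FaDu RT replicate 1, -0.20 without FaDu Control replicate 1, -0.14 without FaDu Control replicate 2, -0.18 without FaDu Control replicate 3 and -0.58 without SAS Control replicate 3; it was -0.21 with no filter on low counts and -0.13 with each line fitted on its own 12 libraries. For FaDu it was -0.21 without SAS Control replicate 1, where 1 gene was left to read, and -0.21 over 5 genes without SAS RT replicate 1; no gene was left to read without SAS Control replicate 3 or SAS RT replicate 2, and it was -0.31 with DESeq2 and -0.21 with no filter on low counts.

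Immediate early genes were many among the genes that radiation raised without heat. Of 37 listed, all tested, radiation without heat raised 14 by edgeR (0.412% of all genes were raised), including the transcription factors EGR1, FOSB and KLF10, the mRNA decay factor ZFP36 and the phosphatase DUSP2, and none fell; the list median was 0.61, beside 0.001 over all genes. Heat alone changed 33 of the 37, raising 32 (15.3% of all genes were raised), with a median of 2.09 beside 0.02 over all genes. After heat, radiation changed none of the 37 by edgeR and 1 by DESeq2, and the median was 0.07, beside 0.003; among all genes, 915 had an unadjusted p under 0.05 in that comparison. Without single libraries the 14 became 9, namely without FaDu Control replicate 2, FaDu Control replicate 3, SAS Control replicate 1 or SAS RT replicate 2, and the heated median became 0.10 without FaDu HT_RT replicate 3, 0.11 without SAS HT replicate 1, 0.04 without SAS HT replicate 3 and 0.12 without SAS HT_RT replicate 3.

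**Figure D3:**
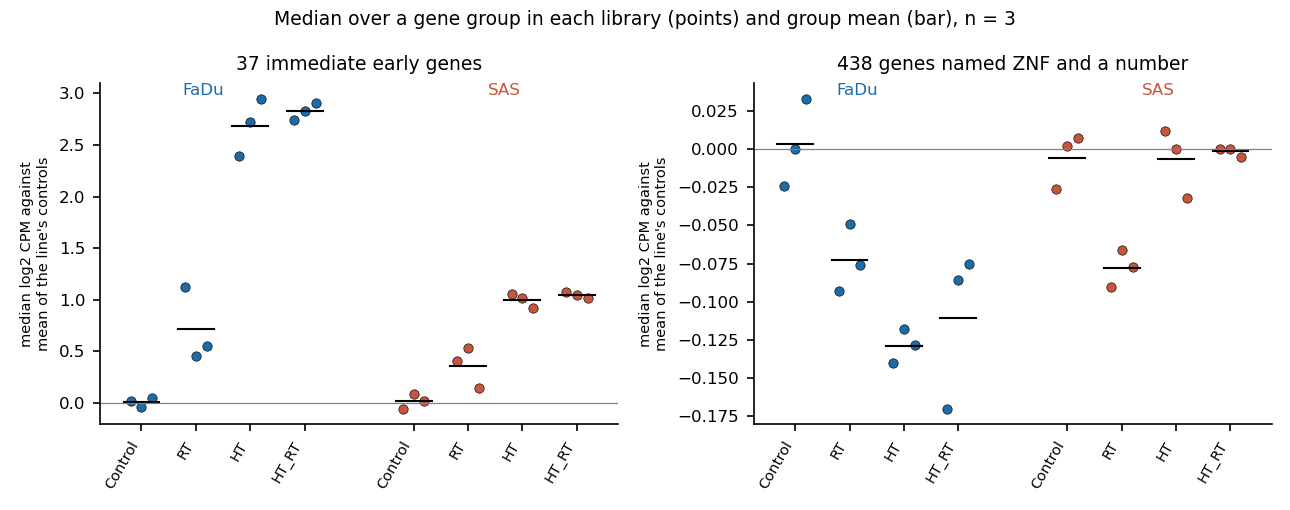
Median over a group of genes of the log2 CPM against the mean of the line's controls, one point per library and bars for the means of 3 replicates. Left, 37 immediate early genes, where RT replicate 1 of FaDu stands above the other RT libraries and HT and HT_RT points lie highest in both lines; right, 438 zinc finger genes, where the RT libraries lie below the controls in both lines, and in FaDu the HT and HT_RT libraries do too.

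By library, the median of the list against the controls of its line was 1.13, 0.46 and 0.55 in FaDu RT, 2.39, 2.72 and 2.95 in FaDu HT and 2.74, 2.83 and 2.91 in FaDu HT_RT. In SAS it was 0.40, 0.53 and 0.14 in RT, 1.05, 1.01 and 0.91 in HT and 1.08, 1.04 and 1.02 in HT_RT. In either line the HT and HT_RT libraries lay together, above all RT libraries. The interaction median of the list was -0.55, beside -0.001 over all genes, with 0 of 37 genes called by edgeR and 3 lower by DESeq2, while 917 of all genes tested reached an unadjusted p under 0.05. With FaDu RT replicate 1 left out the median was -0.31, with 1 gene called lower. Of the list, 4 were called lower without FaDu RT replicate 2, 3 without SAS Control replicate 3, and 1 each without FaDu HT replicate 1 and SAS HT replicate 3. With the replicate number as a block, edgeR called 51 genes in the interaction. The listed genes among them were IER5, EGR1, IER2, JUN, DUSP2, ZFP36, CSRNP1, ARC, EGR4 and FOS, all lower. IER5 had -0.42 (adjusted p 0.000572) and EGR4 -0.75 (adjusted p 0.0237) in that edgeR fit.

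EGR1 followed the list in FaDu but not in SAS. FaDu HT read 1611, 1580.5 and 1502 CPM and HT_RT 1625, 1435 and 1535 CPM, beside the values of FaDu Control and RT given above. SAS RT read 841, 884 and 1167 CPM, SAS HT 544, 566 and 522 CPM and SAS HT_RT 597, 575 and 584 CPM. In FaDu heated groups overlapped far above the unheated ones; in SAS, HT_RT lay just above HT and both lay within the range of the controls and below every RT library. The radiation effect by edgeR was 1.51 ± 0.24 without heat (adjusted p 0.00226, 6 of 6 libraries above all controls of their line) and 0.04 ± 0.23 after heat. Its interaction of -1.47 ± 0.33 was not called (adjusted p 0.198 by edgeR, below 0 in both lines), but was called without FaDu RT replicate 2 (-1.63) or SAS Control replicate 3 (-1.72). With the replicate number as a block edgeR also called it, at -1.42 (adjusted p 0.00531). With FaDu RT replicate 1 and SAS Control replicate 3 both left out, the interaction of EGR1 was -1.28 ± 0.10 (adjusted p 3.32e-07 by edgeR, 22 libraries, below 0 in both lines; over the settings that leave out 1 library its call varied as said). In the same setting FOS had -1.25, ZFP36 -0.91, IER2 -0.79 and DUSP2 -1.01, all called lower, and the list had 5 genes called lower, a median of -0.32, 1 gene called higher after radiation with heat, KLF6 at 0.78, and 11 genes called higher after radiation without heat at a median of 0.45.

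FOS, which forms AP-1 with JUN, read 15.8, 16.7 and 18.8 CPM in FaDu Control, 1758, 1741 and 1565 CPM in HT and 1691, 1522 and 1574 CPM in HT_RT. In SAS it read 25.5, 25 and 41.3 CPM in RT, 217, 229 and 185 CPM in HT and 214, 159 and 193 CPM in HT_RT. Heated groups overlapped in both lines and lay above every unheated library. The radiation effect of FOS by edgeR was 1.55 ± 0.33 without heat (adjusted p 0.0228, 4 of 6 libraries above all controls of their line) and -0.12 ± 0.29 after heat. That call of FOS was lost without FaDu Control replicate 1, 2 or 3, SAS Control replicate 1 or 2 or SAS RT replicate 3, at an adjusted p of up to 0.0848, and its size was 0.85 at the lowest; the interaction of -1.67 ± 0.44 was not called. DUSP2, a phosphatase that switches off MAP kinases, had an interaction of -1.24 ± 0.23, just short of the threshold (adjusted p 0.0613 by edgeR, below 0 in both lines). It was called without FaDu RT replicate 2 (-1.37), FaDu HT replicate 1 (-1.31), SAS Control replicate 3 (-1.30) or SAS HT replicate 3 (-1.28). With the replicate number as a block edgeR called the interactions of FOS (-1.56, adjusted p 0.0464) and DUSP2 (-1.24, adjusted p 0.00436). DESeq2 called that of DUSP2 (adjusted p 0.00701).

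The promoter of EGR1 is shown because EGR1 had the smallest p of all genes in the setting without both libraries, and because serum response elements are the textbook control of this gene. The 250 bases before the start of EGR1, from RefSeq (GRCh38.p14, chr5:138465229-138465478, plus strand), hold 2 CArG boxes, in capitals:
EGR1: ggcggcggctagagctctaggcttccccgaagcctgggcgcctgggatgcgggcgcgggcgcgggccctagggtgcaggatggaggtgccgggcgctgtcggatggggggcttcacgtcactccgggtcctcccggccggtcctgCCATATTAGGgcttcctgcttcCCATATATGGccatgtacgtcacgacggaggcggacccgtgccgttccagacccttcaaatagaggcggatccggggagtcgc
CArG boxes, searched on both strands, stood in 1.16% of the 35116 promoters of the same length and in none of the promoters of FOS, ZFP36 and IER2 within this window. A match describes letters and is neither a binding site nor a cause.

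NF-kappaB regulators and cytokines responded to radiation through a few members. Of 25 listed, radiation without heat raised 3 by edgeR (0.412% of all genes), NFKBIZ, the chemokine CXCL2 and the inhibitor NFKBIA, with a list median of 0.24 beside 0.001 over all genes; 5 were called without SAS RT replicate 3. Radiation after heat raised none by edgeR and 1 by DESeq2, with a median of 0.12 beside 0.003; edgeR called 1 without FaDu HT replicate 3 and 2 without FaDu HT_RT replicate 1, and the median was 0.04 without SAS HT replicate 3, 0.03 without SAS HT_RT replicate 2 and 0.18 without SAS HT_RT replicate 3. In the interaction 1 of 25, NFKBIZ, was called, with the library dependence given above, and the median was -0.06, between -0.14 without SAS HT replicate 3 and 0.002 without SAS HT_RT replicate 3. The interaction was thus not shared by the list. NFKBIA, which holds NF-kappaB in the cytoplasm, had a radiation effect of 0.50 ± 0.09 without heat (adjusted p 0.00424 by edgeR, 6 of 6 libraries higher) and 0.34 ± 0.09 after heat, and an interaction of -0.16 with a 95% interval from -0.42 to 0.09. TNF had a group at 0 counts, and the medians of the list were the same with that group set to a floor of 3 counts over its libraries.

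CXCL2, which draws neutrophils, read 3.95, 5.06 and 4.24 CPM in FaDu Control, 7.87, 11.9 and 12.2 CPM in RT, 6.81, 9.82 and 10.2 CPM in HT and 10.4, 13.6 and 15 CPM in HT_RT. SAS libraries had 0.642, 1.03 and 1.41 CPM in Control, 2.94, 3.24 and 3.11 CPM in RT, 0.984, 1.27 and 0.271 CPM in HT and 1.24, 1.73 and 1.11 CPM in HT_RT. Irradiated libraries were clear of unirradiated ones in FaDu with and without heat, and in SAS without heat only, where HT and HT_RT overlapped. By edgeR the radiation effect was 1.44 ± 0.21 without heat (adjusted p 0.000705, 6 of 6 libraries higher) and 0.62 ± 0.22 after heat; the interaction of -0.82 had a 95% interval from -1.46 to -0.18 and was not called. Its promoter is shown for the kappaB site, the motif that NF-kappaB reads. The 250 bases before the start of CXCL2 (RefSeq, GRCh38.p14, chr4:74099196-74099445, minus strand) hold 2 overlapping matches, which share the capitals:
CXCL2: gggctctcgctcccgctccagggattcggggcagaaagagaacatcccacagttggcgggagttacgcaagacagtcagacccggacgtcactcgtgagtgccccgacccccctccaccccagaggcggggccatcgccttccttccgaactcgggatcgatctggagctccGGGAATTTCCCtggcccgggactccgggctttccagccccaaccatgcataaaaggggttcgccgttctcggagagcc

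YAP and TEAD targets likewise gave single members. Radiation without heat raised 2 of 16 by edgeR (0.412% of all genes), CYR61 and CTGF (also named CCN2), with a list median of 0.05 beside 0.001; after heat it raised none by edgeR, with a median of 0.04 beside 0.003, and DESeq2 called 25 genes in the whole table. The interaction median was -0.05 with 0 of 16 called by edgeR and 2 lower by DESeq2, and 1 was called lower without FaDu RT replicate 2, CYR61 at -0.63. These medians are small beside the moves that single libraries make: without FaDu Control replicate 1 they were 0.24 for radiation without heat and -0.22 for the interaction, and without FaDu HT replicate 1 the heated median was 0.15.

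CTGF, a secreted matrix protein, read 0.631, 1.23 and 1.93 CPM in FaDu Control, 4.06, 4.1 and 3.36 CPM in RT, 5.42, 6.63 and 6.96 CPM in HT and 8.03, 11.6 and 11.3 CPM in HT_RT. Levels in SAS were 7.06, 10.3 and 10.4 CPM in Control, 17.7, 27.1 and 23.1 CPM in RT, 40.4, 55 and 56.2 CPM in HT and 60.2, 67 and 60.2 CPM in HT_RT. No irradiated library overlapped its unirradiated group in either line, with or without heat. The radiation effect by edgeR was 1.42 ± 0.18 without heat (adjusted p 0.000118, 6 of 6 libraries higher) and 0.51 ± 0.14 after heat (adjusted p 0.436, 6 of 6 higher). The interaction of -0.91 ± 0.22 was not called (adjusted p 0.305 by edgeR, below 0 in both lines). With the replicate number as a block edgeR called the interactions of CTGF (-0.91, adjusted p 0.00531) and CYR61 (-0.58, adjusted p 0.0033). The 250 bases before its start (RefSeq, GRCh38.p14, chr6:131951373-131951622, minus strand) hold 3 copies of the TEAD motif GGAATG, in capitals:
CTGF: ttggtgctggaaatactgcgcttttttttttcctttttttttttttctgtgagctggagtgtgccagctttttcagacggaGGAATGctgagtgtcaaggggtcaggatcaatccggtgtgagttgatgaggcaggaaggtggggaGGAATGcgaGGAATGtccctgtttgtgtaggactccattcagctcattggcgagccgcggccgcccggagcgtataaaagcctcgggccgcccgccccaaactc

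The same window was searched in all genes named for a radiation effect, 18 in number, of which 14 matched RefSeq promoters by symbol, with 18 promoters among them; CYR61, GADD45A, MT-TT and ZNF572 had no entry. On both strands, the kappaB site was found for 6 of the 14 genes (SRSF5, NFKBIZ, CSRNP1, CTGF, CXCL2 and ZNF141) and in 9.96% of all 35116 promoters. The TEAD motif GGAATG was found for CTGF and ZNF141 and in 11.9% of all promoters. The heat shock element, TTCNNGAA or GAANNTTC, was found for 1 gene, ZFAND2A, and in 11.6% of all. The cyclic AMP response element TGACGTCA (1.65% of all), the AP-1 motif TGANTCA (6.57%) and the CArG box (1.16%) were found for none of the 14. A gene with several promoters had more than 1 chance of a match, and a missing match says only that these letters are not in this window.

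**Figure D4:**
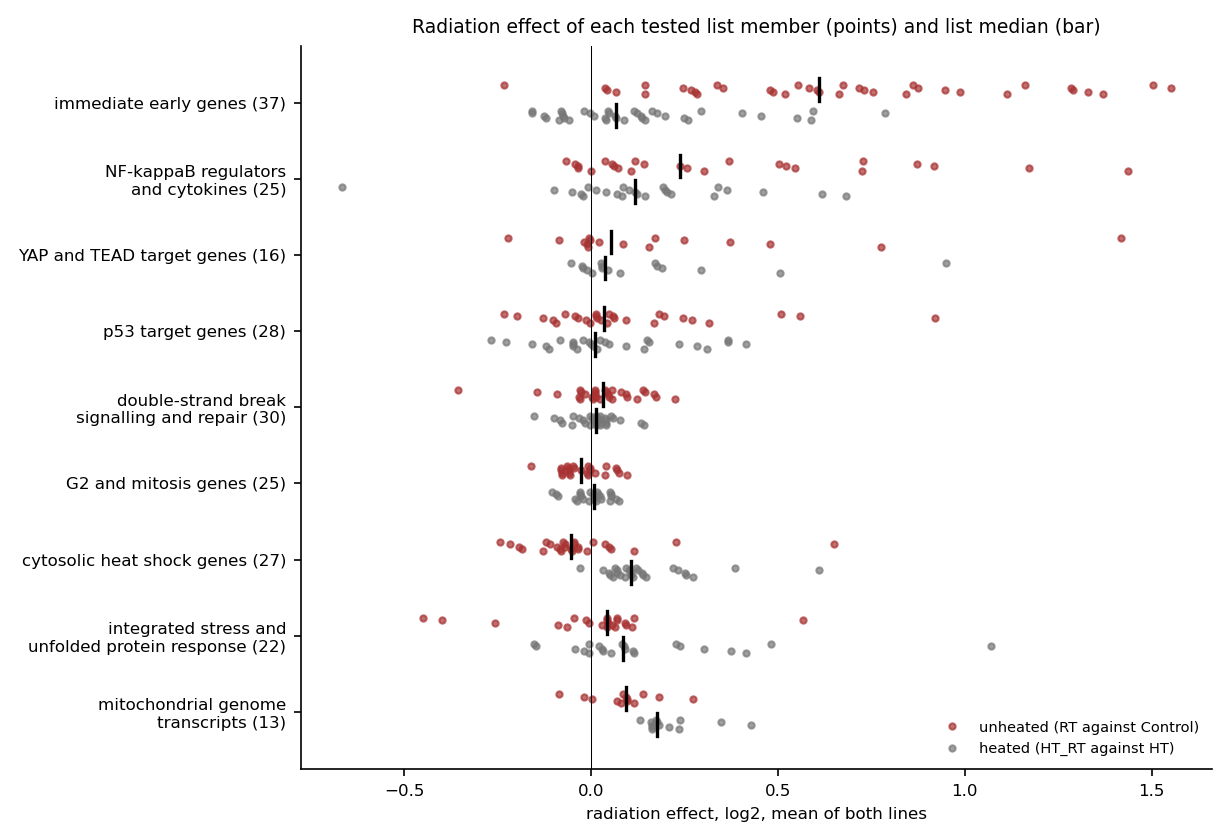
Radiation effect (log2, mean of both lines) of each tested member of 9 gene lists, in unheated spheroids (red) and in heated spheroids (grey), with bars for list medians. The immediate early genes have medians of 0.61 and 0.07, and the cytosolic heat shock genes of -0.05 and 0.11.

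Targets of p53 held few called genes 0.5 h after treatment. Radiation without heat raised 2 of 28 by edgeR (0.412% of all genes), GADD45A, which acts in growth arrest and repair, and PLK2, a kinase of the centriole cycle; the list median was 0.04 beside 0.001 over all genes. After heat none of the 28 was called by edgeR and 1 by DESeq2, with a median of 0.01 beside 0.003; edgeR called 1 without FaDu HT replicate 3, FaDu HT_RT replicate 1, SAS RT replicate 3 or SAS HT_RT replicate 1. The interaction called 0 of 28 by edgeR and by DESeq2, with a median of -0.04. With the replicate number as a block edgeR called GADD45A lower in the interaction (-0.61, adjusted p 0.0033). GADD45A read 18.7, 14.5 and 14.2 CPM in FaDu Control, 33.8, 29.5 and 25.9 CPM in RT, 34.8, 21.1 and 26.7 CPM in HT and 32.3, 32.1 and 32.5 CPM in HT_RT. In SAS it read 50.9, 72.1 and 64.7 CPM in Control, 99.2, 141 and 116 CPM in RT, 53.4, 66.8 and 49.2 CPM in HT and 66, 94.4 and 60.7 CPM in HT_RT. Unheated irradiated libraries were clear of the controls and heated groups overlapped. PLK2 read 18.2, 16 and 19.7 CPM in FaDu Control, 27.2, 26.3 and 24.7 CPM in RT, 20.3, 17 and 23.5 CPM in HT and 26.9, 28.8 and 26.8 CPM in HT_RT. SAS readings were 192, 215 and 201 CPM in Control, 287, 302 and 262 CPM in RT, 128, 135 and 122 CPM in HT and 145, 177 and 149 CPM in HT_RT. For PLK2 the irradiated libraries were higher with and without heat in both lines, with no overlap.

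In numbers, the radiation effect of GADD45A was 0.92 ± 0.13 without heat (adjusted p 0.00061 by edgeR, 6 of 6 libraries higher) and 0.31 ± 0.13 after heat. PLK2 had 0.51 ± 0.07 without heat (adjusted p 0.000333 by edgeR, 6 of 6 libraries higher) and 0.37 ± 0.07 after heat (adjusted p 0.0529, 6 of 6 higher), and its interaction of -0.14 had a 95% interval from -0.34 to 0.06. After heat DESeq2 called PLK2 (adjusted p 0.00161). With the replicate number as a block edgeR called PLK2 (adjusted p 0.00036) and GADD45A (adjusted p 0.0356) after heat. RHOB, a small GTPase of the endosome, and CSRNP1, a nuclear protein of the immediate early list, also had positive values after heat. RHOB went from 1.13 ± 0.15 to 0.56 ± 0.14 and CSRNP1 from 1.29 ± 0.15 to 0.46 ± 0.13. Neither was called after heat by edgeR with all libraries, the filter on low counts and no block. With the replicate number as a block edgeR called both after heat (adjusted p 0.00331 for RHOB and 0.0348 for CSRNP1), as it did with no filter. RHOB was called after heat (0.56) without FaDu RT replicate 1 and SAS Control replicate 3. All 15 genes named for the radiation effect without heat, PLK2, GADD45A, RHOB, CSRNP1, CTGF, CXCL2 and SRSF5 among them, were called in each of the 24 fits that left out 1 library.

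Repair and cell cycle genes gave nearly flat profiles. Of 30 genes of double-strand break signalling and repair, radiation without heat lowered 1 by edgeR (0.264% of all genes), BARD1, the partner of BRCA1, at -0.36, and radiation after heat and the interaction called 0; the medians were 0.03, 0.01 and -0.01. BARD1 lost its call without FaDu Control replicate 1 or 3, FaDu RT replicate 1 or 3, SAS Control replicate 2 or 3, or SAS RT replicate 1, at sizes down to -0.30, and without FaDu RT replicate 1 and SAS Control replicate 3 together, at -0.28. Of 25 G2 and mitosis genes none was called by edgeR in any of the 3 comparisons, with medians of -0.03, 0.01 and 0.03. The interaction of CDK1, the kinase that starts mitosis, was 0.10 ± 0.06 and that of CHEK1, the checkpoint kinase, was -0.13 ± 0.08. Over all genes tested, 1495, 915 and 917 had an unadjusted p under 0.05 in these comparisons, and DESeq2 called 199, 25 and 23.

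Over both lines radiation after heat raised 3 genes by edgeR, none of which was called for radiation without heat. They were ZFAND2A, a heat-induced factor at the proteasome, UBE2D1, the ubiquitin conjugating enzyme, and HERPUD1, which takes part in the degradation of proteins from the endoplasmic reticulum. ZFAND2A read 70.5, 61.8 and 95.1 CPM in FaDu HT, 109.6, 112 and 114 CPM in FaDu HT_RT, 137, 180.1 and 188 CPM in SAS HT and 280.3, 262 and 254 CPM in SAS HT_RT. Without heat it read 4.1, 3.98 and 4.57 CPM in FaDu Control, 4.68, 4.85 and 5.87 CPM in FaDu RT, 18.7, 14.1 and 15.3 CPM in SAS Control and 18.4, 17.9 and 17.7 CPM in SAS RT. Every HT_RT library lay above the HT libraries of its line, while SAS RT and Control overlapped. By edgeR the radiation effect after heat was 0.61 ± 0.09 (adjusted p 0.00573, 6 of 6 libraries higher) and without heat it was 0.23 ± 0.12; the interaction of 0.38 ± 0.15 was not called (adjusted p 0.848, above 0 in both lines). ZFAND2A was called after heat in each of the 24 fits that left out 1 library.

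**Figure D5:**
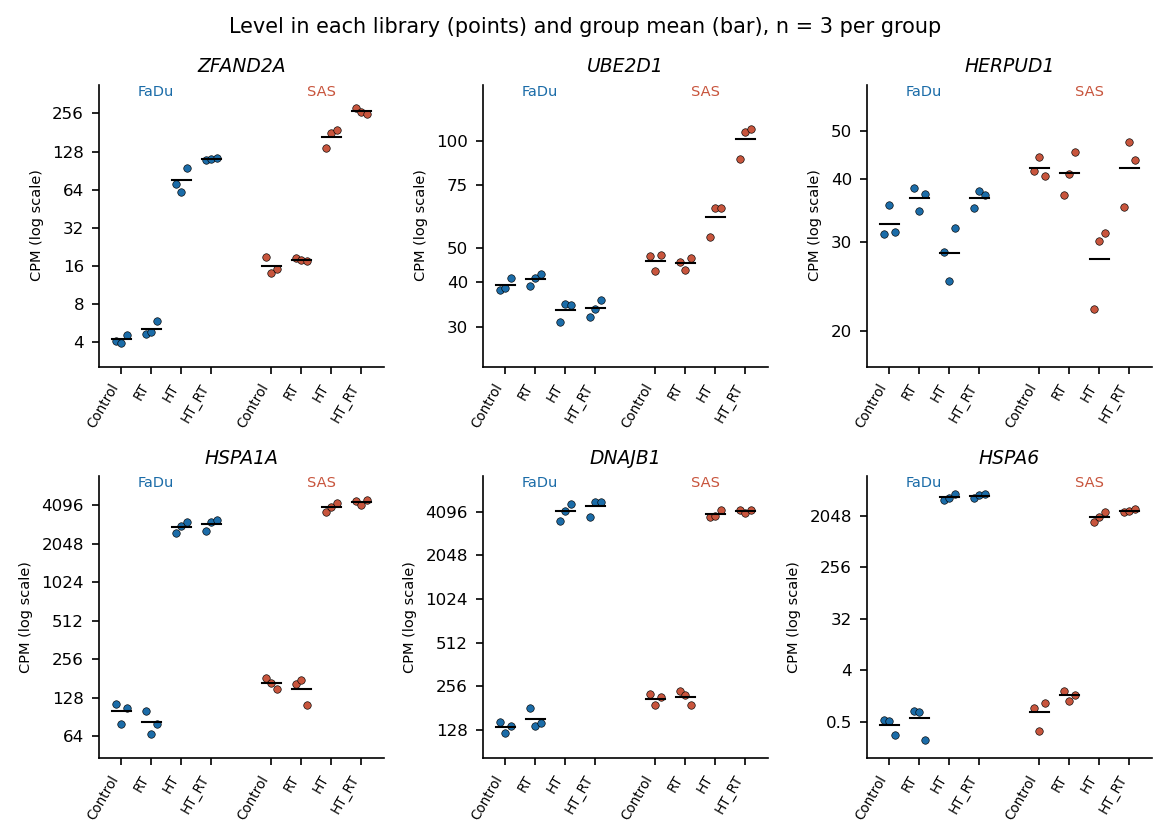
Level of 6 genes in each library in CPM on a log axis, points for replicates and bars for means of 3. ZFAND2A and HERPUD1 have HT_RT points above HT points in both lines, UBE2D1 in SAS only, and HSPA1A, DNAJB1 and HSPA6 show the step from unheated to heated libraries.

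UBE2D1 read 53.7, 64.5 and 64.8 CPM in SAS HT and 88.7, 106 and 108 CPM in SAS HT_RT, beside 47.3, 43 and 47.6 CPM in SAS Control and 45.7, 43.2 and 46.8 CPM in SAS RT. In FaDu the libraries read 38, 38.6 and 41.2 CPM in Control, 39, 41.1 and 42.2 CPM in RT, 30.8, 34.6 and 34.5 CPM in HT and 32, 33.7 and 35.7 CPM in HT_RT. Only in SAS did all HT_RT libraries stand clear of their unirradiated group. By edgeR its effect after heat was 0.38 ± 0.06 over both lines (adjusted p 0.0154). All HT_RT libraries of SAS lay above all HT ones of their line, and in FaDu only HT_RT replicate 3 (35.7 CPM) did. The edgeR interaction of UBE2D1 in SAS was 0.75 ± 0.12 (adjusted p 0.0183, 3 of 3 HT_RT libraries of SAS above all HT ones) against -0.03 ± 0.12 in FaDu. HERPUD1 read 28.7, 25.1 and 32 CPM in FaDu HT, 35.1, 37.9 and 37.2 CPM in FaDu HT_RT, 22.1, 30.2 and 31.3 CPM in SAS HT and 35.3, 47.5 and 43.7 CPM in SAS HT_RT. All HT_RT libraries lay above HT for HERPUD1, and without heat the groups overlapped in both lines. Its effect after heat was 0.48 ± 0.08 (adjusted p 0.0441 by edgeR, 6 of 6 libraries higher), and its interaction of 0.41 ± 0.12 was not called. With the replicate number as a block edgeR called the interaction of HERPUD1 (0.42, adjusted p 0.0295).

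Single libraries decided part of this. UBE2D1 lost its call after heat in 6 of 24 fits, without FaDu RT replicate 2, FaDu HT_RT replicate 2 or 3, SAS HT replicate 1, or SAS HT_RT replicate 2 or 3, with values from 0.33 to 0.42 over all fits. Its interaction in SAS lost the call without FaDu Control replicate 2, FaDu RT replicate 2, SAS Control replicate 1 or 3, SAS RT replicate 1 or 2, SAS HT replicate 1 or SAS HT_RT replicate 2 or 3, with values from 0.66 to 0.83; it was also lost under a stricter filter of 10 counts or more in each library and without FaDu RT replicate 1 and SAS Control replicate 3 together (0.72). HERPUD1 lost its call in 13 of 24 fits: without FaDu Control replicate 2 or 3, FaDu RT replicate 2 or 3, FaDu HT replicate 1 or 2, FaDu HT_RT replicate 2 or 3, SAS Control replicate 1, SAS RT replicate 2, SAS HT replicate 1, or SAS HT_RT replicate 2 or 3, with values from 0.41 to 0.54. It was also lost with RLE factors (0.47), under a stricter filter of 10 counts or more in each library (0.48) and without FaDu RT replicate 1 and SAS Control replicate 3 together. After heat DESeq2 called UBE2D1 (adjusted p 0.000194) and HERPUD1 (adjusted p 0.00073). With the replicate number as a block edgeR called both, at an adjusted p of 0.00013 each.

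Of the cytosolic heat shock genes 1 was called for radiation after heat, while most of the list lay above 0 there. Of 27 listed, heat alone raised 26 by edgeR (15.3% of all genes), with a median of 1.67 beside 0.02 over all genes. Radiation after heat raised 1, ZFAND2A, with a list median of 0.11 beside 0.003 and 26 of 27 above 0. In the same comparison 13 of 13 protein coding transcripts of the mitochondrial genome were also above 0, with a median of 0.18 and none called by edgeR. Radiation without heat called 0 of the heat shock genes by edgeR and by DESeq2, with a median of -0.05 beside 0.001. The interaction called 0 of 27 by edgeR and by DESeq2, with a median of 0.17 beside -0.001 and 23 of 27 above 0. Chaperone genes rise and fall together, so the 27 are not independent readings. BAG3, a co-chaperone of HSP70, had 0.38 ± 0.13 after heat and an interaction of 0.43 ± 0.18, and FKBP4, a co-chaperone of HSP90, had 0.14 ± 0.06 and 0.23 ± 0.09; none of these was called. The unheated median was -0.02 without FaDu Control replicate 1, -0.08 without FaDu Control replicate 2 or FaDu RT replicate 1, -0.10 without SAS Control replicate 3 and -0.09 without SAS RT replicate 1.

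Genes of the integrated stress and unfolded protein response, 22 in number, had HERPUD1 as the 1 called after heat by edgeR without a block. The list median was 0.09 after heat beside 0.003, 0.04 without heat beside 0.001, and 0.06 in the interaction beside -0.001; the last was 0.12 without FaDu RT replicate 1 and 0.15 without FaDu HT replicate 1. CHAC1, a glutathione degrading enzyme induced by ATF4, read 5.59, 5.9 and 6.7 CPM in FaDu HT and 9.95, 11.9 and 12.3 CPM in FaDu HT_RT. In SAS it read 3.3, 6.49 and 4.66 CPM in HT and 9.21, 13.6 and 11 CPM in HT_RT. All HT_RT libraries lay above HT. Its radiation effect after heat was 1.07 ± 0.20, just short of the threshold (adjusted p 0.0529 by edgeR, 6 of 6 libraries higher), against 0.06 ± 0.23 without heat, and it was called in the setting without FaDu RT replicate 1 and SAS Control replicate 3. Without heat radiation raised PPP1R15A, a phosphatase subunit that restores translation, by 0.57 over both lines. The highest radiation effect of the list was 0.95 in unheated FaDu, with 1 gene called, and 0.19 in unheated SAS, with none called. DNAJB9, an endoplasmic reticulum chaperone, was lowered without heat, at -0.40. This call was kept only without FaDu RT replicate 1, FaDu HT replicate 1, SAS RT replicate 1 or any replicate of SAS HT. It was lost without FaDu RT replicate 1 and SAS Control replicate 3 together (-0.42). The interaction of DNAJB9 was 0.62 ± 0.13 and was not called (adjusted p 0.142 by edgeR, above 0 in both lines), but was called without SAS HT replicate 3 (0.74).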

How the data were processed

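RNA-seq was made from 24 spheroid samples, 3 replicates in each of 8 groups of line and treatment. The authors deposited raw gene counts, which were used as they stand; normalised tables were not used. Aligner, counting tool and strand setting were not given in the sources used here, so genes that overlap on opposite strands are uncertain; the submitters' notes name bcl2fastq, DESeq2 and the build mm9, although the gene identifiers are human. Names came from GENCODE release 29 (56898 of 57500 identifiers found). Depth was 15203484 to 29452514 counts a library.

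Genes passing filterByExpr with a minimum count of 10 (18188) were fitted in edgeR 4.0.16 under R 4.3.3 with TMM factors and 1 quasi-likelihood model of all 8 groups. The contrasts were the interaction over both lines, in each line and between lines, and the radiation and heat effects, with Benjamini-Hochberg adjustment over all genes and a call at 0.05; the error of a log2 value is its standard error from the F statistic. Genes were named if their mean log2 CPM reached 1: up to 15 with the smallest p called per direction for the interaction, or the first 10 where fewer were called, up to 15 for the radiation effect without heat, up to 10 after heat, up to 5 of 1 line, members of each list that were called or had the smallest p for the interaction, and HSPA6, HSPA1A, HSPA1B and DNAJB1. Members and lists were chosen with earlier results of these data known. Tried as alternatives were DESeq2 1.42.0, RLE factors, filters, a replicate block, each line alone, a common interaction term, differences of CPM, other thresholds, leaving out each library and, chosen after the data were seen, leaving out a pair of libraries. The labels do not say that a replicate number marks a shared experiment; after group means were removed, all 3 pairs of equal number correlated over 0.1 in 5 of the 6 pairings of FaDu groups, and not for RT with HT (lowest 0.023). Of these, Control with RT (0.389, 0.2 and 0.115) makes radiation in unheated FaDu, and HT with HT_RT (0.471, 0.183 and 0.27) makes radiation in heated FaDu. Both enter the FaDu interaction, and counts with the replicate block are given beside the results. Motifs and figures were made in Python 3.11.15 with matplotlib 3.10.9. The steps were tested on simulated data.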

Additional observations from a re-analysis of the deposited data

How the results depend on the processing

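Counts of called genes are given in the order interaction over both lines, in FaDu, in SAS, then radiation without heat, radiation after heat, radiation in unheated FaDu and in unheated SAS. DESeq2 called 23, 4, 5, 199, 25, 66 and 63. With no filter on low counts the counts were 84, 66, 31, 277, 86, 123 and 134, and the difference between lines called 22; with at least 10 counts in every library the interaction called 3 over both lines and 0 in SAS. A block for the replicate number gave 51, 17, 17, 416, 71, 151 and 139; whether replicates with 1 number share an experiment is not stated, and after group means were removed 22 of 24 libraries correlated best with a library of their own number, while 23 of 36 pairs of equal number were over 0.1, 17 of 18 in FaDu (lowest 0.023) and 6 of 18 in SAS (lowest -0.002). Among the 51 were IER5, EGR1, IER2, JUN, DUSP2, ZFP36, CSRNP1, ARC, EGR4 and FOS, all lower. None of these was among the 5 genes of the main edgeR fit, which has no block. Each line on its own 12 libraries gave 0 for FaDu, 1 for SAS and 3 for radiation in unheated FaDu, and a common interaction term gave 3. On differences of CPM the counts were 0 for FaDu, 1 for SAS, 1 for the difference between lines, 13 for radiation in unheated FaDu and 10 in unheated SAS, and the interactions of NR4A1 (63.7 CPM) and HSPA6 (404 CPM) turned from below to above 0. Requiring an absolute log2 over 1 left 3, 1, 1, 24, 0, 12 and 8, and 1221 for heat; an adjusted p under 0.10 gave 190 for radiation without heat, 11 after heat and 28 in unheated SAS. Without both FaDu RT replicate 1 and SAS Control replicate 3 the interaction called 14, 6 in FaDu and 5 in SAS, and radiation called 6 after heat and 10 in unheated SAS. With each library left out in turn the ranges were 0 to 10 (interaction), 0 to 5 (FaDu), 0 to 3 (SAS), 0 to 0 (difference), 72 to 133 (radiation without heat), 1 to 14 (after heat), 5157 to 5866 (heat), 9 to 28 (unheated FaDu) and 0 to 24 (unheated SAS). The causes of these moves were not tested. RLE factors kept every count within 1.5 times.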

Other observations

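Zinc finger genes form a further group, chosen after values were seen, since ZNF555, ZNF141 and ZNF572 stood among the genes above. Of 438 tested genes named ZNF and a number, radiation without heat lowered 15 by edgeR (0.264% of all genes) and raised none, with a median of -0.09, 310 of 438 below 0 and 0.001 as the median of all genes. After heat edgeR called 0 of them for radiation, with a median of 0.005 beside 0.003. In the interaction the median was 0.09 beside -0.001, with 301 of 438 above 0 and 1 called, ZNF555. The RT and Control libraries that show the fall enter that median with the opposite sign. DESeq2 also called ZNF681, ZNF254, ZNF572 and ZNF436 higher in the interaction. With the replicate number as a block edgeR called these and ZNF141 higher. By line the median without heat was -0.07 in FaDu and -0.11 in SAS, and after heat 0.01 and 0.0. The library medians against the controls were -0.093, -0.049 and -0.076 in FaDu RT and -0.09, -0.066 and -0.077 in SAS RT, so all 6 RT libraries lay below all controls of their line, whose own values ran from -0.026 to 0.033. Low values were not particular to RT in FaDu, where HT read -0.14, -0.118 and -0.128 and HT_RT -0.17, -0.086 and -0.075; in SAS the HT and HT_RT libraries lay between -0.032 and 0.012. These are small shifts of many weakly expressed genes that share sequence, and what else the RT libraries share was not tested.

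ZNF141, another of these genes, read 12.7, 13.2 and 12.9 CPM in FaDu Control, 8.95, 10.4 and 9.31 CPM in RT, 10.4, 12 and 11.4 CPM in HT and 9.5, 10.5 and 11.7 CPM in HT_RT. In SAS it read 13.9, 13 and 12.4 CPM in Control, 7.96, 7.84 and 7.75 CPM in RT, 10.6, 6.96 and 7.42 CPM in HT and 8.32, 7.13 and 8.25 CPM in HT_RT. The unheated irradiated libraries lay below the controls in both lines and the heated groups overlapped. Its radiation effect was -0.59 ± 0.09 without heat (adjusted p 0.00154 by edgeR, 6 of 6 libraries lower) and -0.08 ± 0.09 after heat.

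Splicing regulators were looked at after SRSF5 was seen. Of 16 tested SRSF and CLK genes, radiation without heat raised 2 (0.412% of all genes), SRSF5 and SRSF6, and lowered 1 (0.264% of all genes), the kinase CLK1 that phosphorylates SR proteins, at -0.71; the median of the 16 was 0.01, so the group did not move as one. SRSF6 had a radiation effect of 0.48 ± 0.07 without heat (adjusted p 0.000493 by edgeR, 6 of 6 libraries higher) and 0.13 ± 0.07 after heat. CLK1 had an interaction of 0.91, opposite in sign to that of SRSF5, which edgeR did not call and DESeq2 did (0.90, adjusted p 0.00701, above 0 over 24 libraries). With the replicate number as a block edgeR called it too (0.92, adjusted p 0.00162). Heat alone raised CLK1 by 1.98.

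Of 13 protein coding transcripts of the mitochondrial genome, edgeR and DESeq2 called 0 for radiation without heat, radiation after heat and the interaction over both lines, where 1495, 915 and 917 of all genes had an unadjusted p under 0.05. The median for radiation without heat was below 0 in FaDu and above 0 in SAS. In FaDu it was -0.18, and -0.28 without FaDu Control replicate 1, -0.08 without FaDu Control replicate 2 and -0.10 without FaDu RT replicate 1. In SAS it was 0.30, and 0.19 without SAS Control replicate 1 and 0.13 without SAS RT replicate 2. The interaction median was 0.38 in FaDu, and 0.63 without FaDu HT replicate 1, 0.23 without FaDu HT replicate 3 and 0.15 without FaDu HT_RT replicate 1. In SAS it was -0.11 and hung on single libraries, from -0.28 without SAS HT replicate 2 to 0.18 without SAS HT replicate 1, and 0.09 without SAS RT replicate 2.

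COL1A1, the 1 fibroblast marker that passed the filter, read 1.18, 0.97 and 1.82 CPM in SAS Control and 31.4, 16.5 and 23.9 CPM in SAS HT, while COL3A1 and DCN stayed at or near 0, so in SAS it rose with heat while those did not. In FaDu COL1A1 read 35.8, 42.9 and 46.3 CPM in Control and 49.4, 48.2 and 63.7 CPM in HT, a heat effect of 0.366 that edgeR did not call.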
